A study of Homo sapiens with 4 samples.

Results

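The 9 genes described here encode proteins that carcinoma cells display on their surface and that serve as tumor markers or as targets of antibodies: EPCAM, CEACAM5, CEACAM6, MUC1, MUC16, MSLN, FOLR1, CD24 and CD44. They were taken by gene name from a deposited table of 58174 genes, and each name matched 1 row. The values come from RNA sequencing of 2 human lung cancer cell lines, each a single line and therefore 1 example of its kind. H1299 came from a lymph node of a patient with non-small cell lung cancer, and HCC827 is a lung adenocarcinoma line that carries an activating EGFR mutation. Each line was transfected either with a control siRNA (siCTR) or with an siRNA against CDH3 (siCDH3), the gene of P-cadherin, and RNA was taken at 48 h. This gives 4 groups, H1299 siCTR, H1299 siCDH3, HCC827 siCTR and HCC827 siCDH3, with 1 library each, so nothing measured within a line could be checked against a replicate. The number of siRNA sequences used is not given in the sources used here.

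Epithelial cells hold many of these proteins on the surface that faces a lumen, and carcinomas often keep or raise them while losing that polarity. Several are tied to the membrane by a glycosylphosphatidylinositol (GPI) lipid anchor rather than by a protein segment: CEACAM5, CEACAM6, mesothelin, the folate receptor and CD24. EPCAM, MUC1, MUC16 and CD44 cross the membrane, and parts of them can be cut off and shed. CD44, the receptor for the matrix sugar hyaluronan, differs from the rest in being common on mesenchymal and blood cells too.

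Values are TPM, a measure of transcript abundance scaled for transcript length and for the library total, so that levels may be compared between genes of a library. The read depth behind them is unknown, and precision at low TPM cannot be given. A gene that reached 5 TPM in 1 or both libraries of a comparison was counted as measured in it. The log2 ratio was taken of TPM + 1, which understates differences of low genes, and a gene was counted as different when this ratio was at least 1 in size (2-fold). The targeted gene, CDH3, stood at 173 TPM with siCTR and 78.8 with siCDH3 in HCC827, and at 1.21 and 0.169 in H1299, where it was scarce before silencing. Mitochondrially encoded protein-coding genes took between 10.1% and 12.8% of TPM in H1299 and between 26.4% and 27.6% in HCC827, and since TPM has a fixed sum the remaining genes share less of it in HCC827. Few markers of blood and endothelial cells reached 5 TPM, 1 of 12 hematopoietic markers (CD68) and 0 of 6 endothelial markers in each library. Of 10 fibroblast markers 1 did so in both H1299 libraries and 2 in both HCC827 libraries, and of 6 mesothelial markers 1 did so in H1299 and 0 in HCC827. Of 9 lung epithelial markers, 3 reached that level in both HCC827 libraries and 0 in both H1299 libraries, where 5 were listed at 0.

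The antigens separated the lines into one that carried nearly all of them and one that carried mainly CD44. In HCC827, 8 of the 9 genes reached 5 TPM in both libraries, all but MSLN. In bulk RNA, fewer cells with a transcript and less of it per cell cannot be told apart. In H1299, 2 of the 9 did so in both libraries, CD44 and MUC1, while 4 were listed at 0 in siCTR and 2 in siCDH3. From highest to lowest in HCC827 siCTR the order was EPCAM, CD24, CD44, MUC1, FOLR1, CEACAM6, CEACAM5, MUC16 and MSLN. In HCC827 siCDH3 the order was the same except that CD44 stood above CD24. CD24 and CD44 lay close together in that line, at 121 and 119 TPM in siCTR, and so did MUC1 and FOLR1, at 58.8 and 58.0. In H1299 siCTR the order began with CD44, MUC1, CD24 and EPCAM. With 1 library per group it cannot be said which neighbors in these orders differ beyond a spread between cultures.

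**Figure D1:**
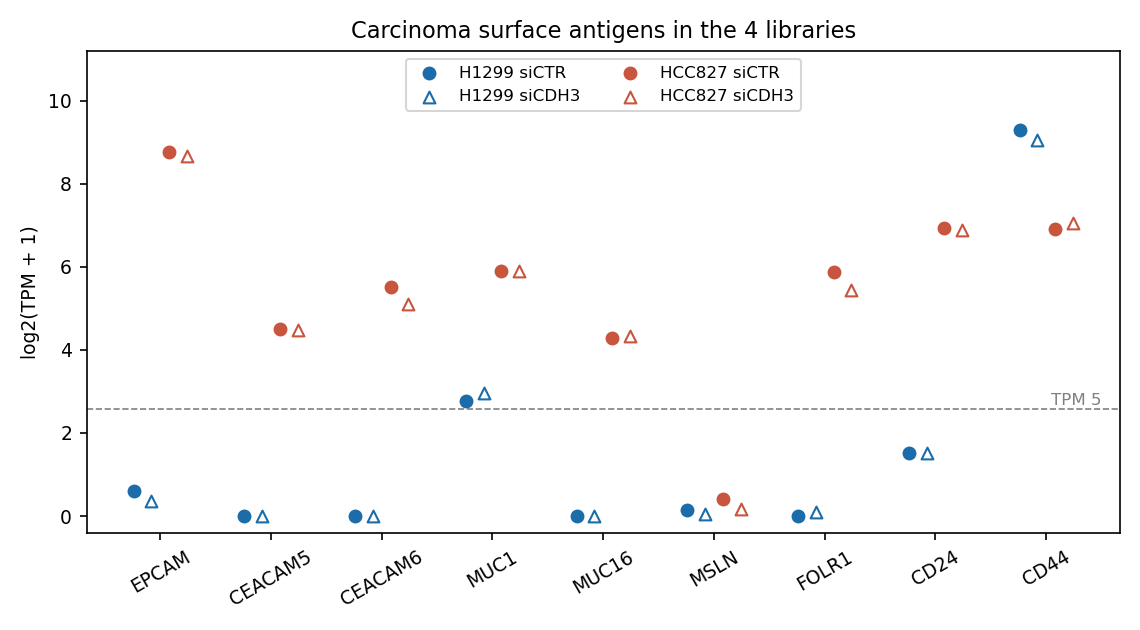
Level of each of the 9 genes as log2(TPM + 1), with 1 point per library: blue for H1299, red for HCC827, filled circles for siCTR and open triangles for siCDH3. The HCC827 points stand above the H1299 points for 7 genes that reach 5 TPM (dashed line), CD44 shows the opposite order, and MSLN lies near 0 in all 4 libraries.

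EPCAM, a cell adhesion molecule of epithelia whose inner part can be released by proteases and act in the nucleus, was the most abundant of the 9 in HCC827. In HCC827 it stood at 436.9 TPM with siCTR and 408.5 with siCDH3, and in H1299 at 0.514 and 0.286. The HCC827 level exceeded that of 98.2% of genes with at least 5 TPM in the siCTR library, whereas both H1299 values were under 1. HCC827 was higher than H1299 by a log2 ratio of 8.18 in siCTR and 8.32 in siCDH3.

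CEACAM5, the carcinoembryonic antigen measured in the blood of patients with carcinoma, and CEACAM6, its close relative, are both GPI-anchored adhesion proteins of the immunoglobulin superfamily. CEACAM5 stood at 21.5 TPM with siCTR and 21.4 with siCDH3 in HCC827 and was listed at 0 in both H1299 libraries. CEACAM6 had 44.4 and 33.3 in the same order in HCC827 and was also listed at 0 in both H1299 libraries. CEACAM6 was therefore 2.06 times CEACAM5 in siCTR and 1.55 times in siCDH3. The genes are alike in sequence and an annotated gene that spans both was listed at 0.666 and 0.358 TPM in HCC827, so how reads were shared between them is uncertain.

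The likeness extends to the promoters of the pair, which are shown because these genes were both present in HCC827 and both listed at 0 in H1299. Below are the 250 bases before each RefSeq transcription start (GRCh38.p14), 5′ to 3′ on the plus strand, CEACAM5 at chr19:41708376-41708625 and CEACAM6 at chr19:41755280-41755529. Capitals mark CACGTG, an E-box bound by factors such as USF, CAGGTG or its reverse complement CACCTG, an E-box bound by ZEB and SNAI repressors, and TATAAA, the core of a TATA box.
CEACAM5: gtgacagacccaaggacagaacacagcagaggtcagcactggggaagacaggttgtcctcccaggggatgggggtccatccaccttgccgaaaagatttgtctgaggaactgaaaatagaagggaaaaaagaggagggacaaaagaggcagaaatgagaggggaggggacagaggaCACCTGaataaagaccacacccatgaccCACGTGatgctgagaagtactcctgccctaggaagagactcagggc
CEACAM6: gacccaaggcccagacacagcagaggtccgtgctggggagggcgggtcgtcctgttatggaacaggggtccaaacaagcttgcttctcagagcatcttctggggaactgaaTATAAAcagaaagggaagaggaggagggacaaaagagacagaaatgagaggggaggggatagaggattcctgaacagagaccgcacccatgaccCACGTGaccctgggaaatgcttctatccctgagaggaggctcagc
In a global alignment 189 of 242 aligned bases were identical (78.1%), against 55.2% to 68.8% in the other 14 pairs among the 6 members with a promoter in the table. CACGTG stood 46 bases before the start in CEACAM5 and 45 in CEACAM6, and 6.35% of all 35116 promoter windows of this length hold it. CACCTG was found in CEACAM5, 74 bases before the start, and not in CEACAM6, and 17.5% of all windows hold it or its reverse complement. TATAAA was found in CEACAM6, 139 bases before the start, and not in CEACAM5, and 10.7% of all windows hold it on either strand. CEACAM5 had 2 CpG dinucleotides in the window and CEACAM6 5, against a median of 11 over all windows. These matches describe letters in a window, and no binding was measured.

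MUC1 and MUC16 are mucins that cross the membrane and carry dense O-linked sugars. MUC16 holds the CA125 epitope, and MUC1 the CA15-3 epitope. MUC1 stood at 58.8 TPM with siCTR and 59.0 with siCDH3 in HCC827, and at 5.79 and 6.82 in H1299. It was the only member besides CD44 with at least 5 TPM in all 4 libraries, and HCC827 was 10.1-fold higher in siCTR and 8.64-fold higher in siCDH3. MUC16 stood at 18.4 TPM with siCTR and 19.2 with siCDH3 in HCC827. In H1299 it was listed at 0 in siCTR and at 0.00214 in siCDH3.

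MUC1 is shown with CD44 because both were measured in each library and differ in opposite directions between the lines. The sequences are again the 250 bases before the start in GRCh38.p14, MUC1 on the minus strand at chr1:155192916-155193165, the first of its 2 starts in the table, and CD44 on the plus strand at chr11:35138921-35139170, with the same motifs in capitals.
MUC1: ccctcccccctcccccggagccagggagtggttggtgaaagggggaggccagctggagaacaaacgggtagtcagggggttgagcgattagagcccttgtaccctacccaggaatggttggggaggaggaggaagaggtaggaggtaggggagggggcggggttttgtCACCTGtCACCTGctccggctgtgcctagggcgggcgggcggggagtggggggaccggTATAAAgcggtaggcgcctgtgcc
CD44: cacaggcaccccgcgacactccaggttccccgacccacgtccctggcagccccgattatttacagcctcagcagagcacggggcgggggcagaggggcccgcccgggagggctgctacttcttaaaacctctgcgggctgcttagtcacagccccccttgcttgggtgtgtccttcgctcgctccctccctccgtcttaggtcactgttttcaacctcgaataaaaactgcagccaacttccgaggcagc
MUC1 held CACCTG at 82 and again at 75 bases before the start and TATAAA at 24 bases, a motif found on either strand in 10.7% of all windows. CD44 held none of the motifs in capitals. GGGCGG or its reverse complement CCGCCC, the GC box of Sp1-type factors, occurred 4 times in MUC1, some sharing bases, and 2 times in CD44, and 42.6% of all windows hold it. The windows had 11 CpG in MUC1 and 15 in CD44. Of the other members, CD24 had 3 starts with 20, 27 and 17 CpG, and MUC16 had 2 starts with 6 each. EPCAM, MSLN and FOLR1 were not matched in the table.

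MSLN encodes mesothelin, a GPI-anchored protein of the mesothelium that binds MUC16 and is raised in many carcinomas. It stood at 0.339 TPM with siCTR and 0.130 with siCDH3 in HCC827, and at 0.101 and 0.0388 in H1299. All 4 values were under 1, so this binding partner of MUC16 was scarce in the line in which MUC16 was measured. Its relatives MSLNL, OTOA and STRC did not reach 5 TPM in any of the 4 libraries. Among 5 other mesothelial markers, CALB2, the calretinin gene, had 25.2 and 25.1 TPM in H1299 and 1.31 and 0.722 in HCC827, siCTR first. It was the only 1 of the 6 mesothelial markers, MSLN included, to reach 5 TPM in H1299, and 0 did so in HCC827.

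FOLR1, the GPI-anchored folate receptor alpha that takes up folate by endocytosis, stood at 58.0 TPM with siCTR and 42.8 with siCDH3 in HCC827. In H1299 it was listed at 0 in siCTR and at 0.0705 in siCDH3. The other folate receptor genes FOLR2, FOLR3 and IZUMO1R did not reach 1 TPM in any library. The reduced folate carrier SLC19A1 was present in both lines, with 8.07 in H1299 siCTR and 11.5 in HCC827 siCTR. FOLR1 thus differed between the lines, and SLC19A1 was within 2-fold. With siCDH3 the order of SLC19A1 was reversed, with 10.4 in H1299 and 7.71 in HCC827. Another folate carrier gene, SLC46A1, had 3.92 in H1299 and 7.87 in HCC827 with siCTR, a log2 ratio of 0.85. With siCDH3 SLC46A1 had 3.63 and 9.81, at 1.22, which passed the 2-fold rule.

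CD24 is a short, heavily glycosylated GPI-anchored protein that binds P-selectin and SIGLEC10. It stood at 121 TPM with siCTR and 118 with siCDH3 in HCC827, and at 1.87 and 1.88 in H1299. HCC827 was 64.8-fold higher in siCTR and 62.6-fold higher in siCDH3. A processed copy, CD24P4, was listed at 0 in H1299 and at 0.644 and 0.745 in HCC827, and reads of CD24 may have been assigned to it. The receptor genes SIGLEC10 and SELP were under 1 TPM in all 4 libraries.

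CD44 was the only member higher in H1299. In H1299 it stood at 630.6 TPM with siCTR and 531.4 with siCDH3, and in HCC827 at 119 and 133. In H1299 siCTR it exceeded 98.4% of genes with at least 5 TPM. H1299 was 5.30-fold higher than HCC827 in siCTR and 4.01-fold higher in siCDH3. The ratio of CD44 to CD24, which is used to describe epithelial and mesenchymal states of carcinoma cells, was 338 with siCTR and 282 with siCDH3 in H1299, and 0.983 and 1.12 in HCC827. The table gives 1 value per gene, so standard and variant CD44 forms cannot be told apart.

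Between the lines in siCTR, 8 of the 9 genes were measured, 7 of them higher in HCC827 by the 2-fold rule and 1 lower. Of all 12601 genes measured in this comparison, 41.2% passed the 2-fold rule, 13.5% as higher and 27.8% as lower. In siCDH3 the counts were again 7 and 1, where 39.4% of 12542 genes passed, 15.3% as higher and 24.2% as lower. For a member measured only through the line in which it was high, the filter fixed the direction and favored a difference. This applies to EPCAM, CEACAM5, CEACAM6, MUC16, FOLR1 and CD24. Over all genes the median was -0.39 in siCTR and -0.23 in siCDH3, and setting it to 0 moved the share of lower genes among those past the rule from 67.4% to 48.7% in siCTR and from 61.2% to 50.2% in siCDH3. The members' split stayed at 7 and 1 when that median was set to 0, when TPM was recomputed over nuclear protein-coding genes and under quantile normalization. Over all alternatives run, the log2 ratio of CD44 lay between -2.41 and -1.94 in siCTR.

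siCDH3 went with small differences in the antigens of HCC827. None of the 8 measured members was 2-fold higher or lower, where 1.84% of 11043 genes were, 1.01% as higher and 0.833% as lower. FOLR1 had the largest difference, 42.8 against 58.0 TPM, a log2 ratio of -0.43, and CEACAM6 was next, 33.3 against 44.4 TPM, at -0.41. These lay at the lower side of the distribution, with 4.61% of all genes below FOLR1 and 5.03% below CEACAM6. CD44 was higher at 0.16 and MUC16 at 0.06. EPCAM was at -0.10, CD24 at -0.04, CEACAM5 at -0.01 and MUC1 at 0.00454. The median of all genes was 0.03, and MUC1 turned to between -0.04 and -0.03 under the other scalings. CEACAM6 and CEACAM5, side by side in the genome, therefore had unequal log2 ratios in the same pair of libraries.

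In H1299, 2 members were measured and neither was 2-fold different, where 2.46% of 11622 genes were, 0.878% as higher and 1.58% as lower. CD44 was lower in siCDH3, 531.4 against 630.6 TPM, a log2 ratio of -0.25, and MUC1 was higher, 6.82 against 5.79 TPM, at 0.20. Among all genes past the rule 64.3% were lower, and 48.9% once ratios were centred on the median of -0.11. Relative to that median, CD44 was at -0.14 and MUC1 at 0.31. For MUC1, an overlapping annotated protein-coding gene on the same strand, AL713999.1, was listed at 0 in H1299 siCTR and at 3.77 TPM in H1299 siCDH3, and whether reads moved between them was not tested. The other 7 members were below 5 TPM in both H1299 libraries.

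**Figure D2:**
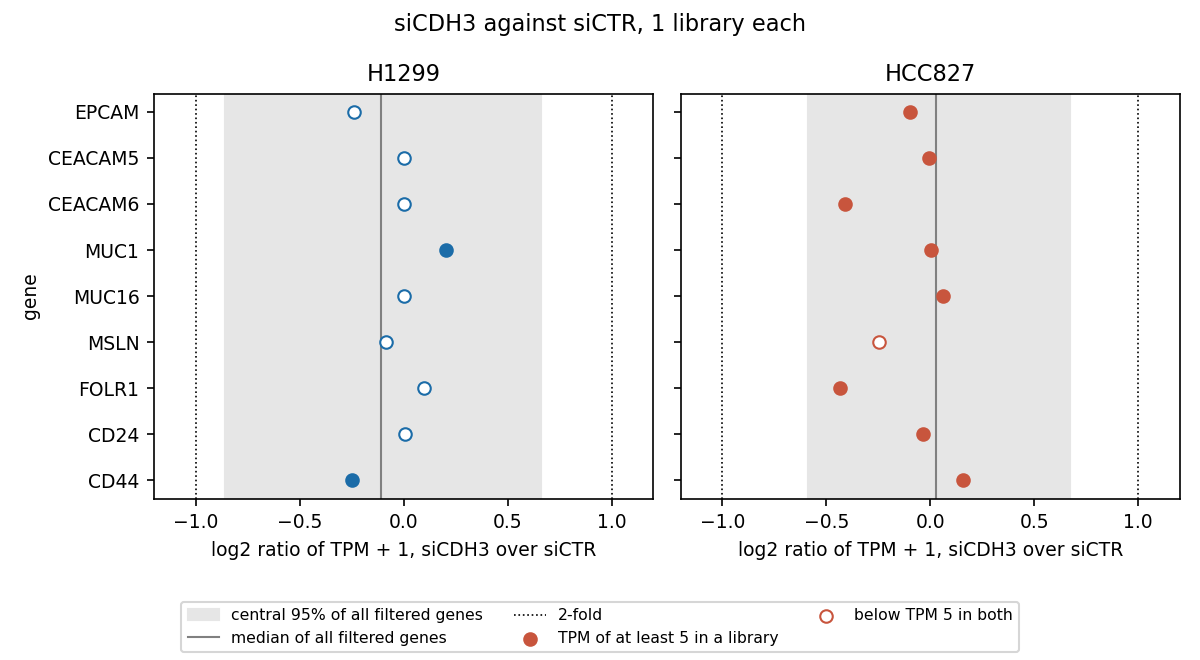
Log2 ratio of TPM + 1, siCDH3 over siCTR, for each of the 9 genes in H1299 (left) and HCC827 (right). Filled points are genes with at least 5 TPM in a library of that line, the grey band holds the central 95% of all genes measured in that line, and dotted lines mark 2-fold. Open points are genes below 5 TPM in both libraries of that line, and the added 1 draws their ratios toward 0. All points lie inside the band, with FOLR1 at -0.43 and CEACAM6 at -0.41 nearest its lower edge in HCC827.

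Across both lines, with the cell line as the unit of replication (n = 2), 0 of the 8 fitted members passed limma's test with Benjamini-Hochberg adjustment at 0.05, and 0 had an unadjusted p under 0.05. Over all 12941 genes fitted, 0.00773% passed, and 581 genes had an unadjusted p under 0.05. The adjusted p-values of the members lay between 0.950 and 0.997. The mean log2 difference over both lines was -0.17 for EPCAM (SE 0.15, 95% interval -0.57 to 0.24), -0.20 for CEACAM6 (SE 0.18, -0.67 to 0.26), 0.10 for MUC1 (SE 0.16, -0.31 to 0.51) and -0.05 for CD44 (SE 0.18, -0.51 to 0.42). For 6 of the 8 the mean includes H1299 values under 5 TPM, 2 of them at 0 in both libraries. These 2, CEACAM5 and CEACAM6, have an H1299 ratio fixed at 0, so only HCC827 informs their means. Their intervals and tests therefore do not measure replication between the lines. The H1299 part of the EPCAM mean rests on 0.514 and 0.286 TPM. The mean of EPCAM was -0.38 with a pseudocount of 0.1 and -0.08 with 5, and that of MUC1 was 0.07 with 5. For FOLR1 the mean was -0.17 as reported, 0.16 with a pseudocount of 0.1 and -0.19 with 5, so its sign depended on this setting.

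Mucin genes and genes of the enzymes that build mucin sugars were also set side by side in the siCTR libraries, where 13.5% of all genes were higher and 27.8% lower in HCC827. Of 12 genes listed as other membrane-bound mucins, 7 were measured between the lines in siCTR, 5 higher and 2 lower in HCC827 by the 2-fold rule. Not all are MUC genes: MCAM, an adhesion molecule, was 1 of the 5, and PODXL was 1 of the 2. All 7 were measured through 1 line alone, so the filter fixed their direction and favored a difference. MUC20 stood at 36.8 TPM in HCC827 and at 1e-06 in H1299, and MUC13 had 25.3 and 0.229. MUC15 was the reverse, with 0.0230 in HCC827 and 32.7 in H1299. Of 6 secreted mucins 1 was measured, MUC5B, a gel-forming mucin of airways, at 78.7 TPM in HCC827 and listed at 0 in H1299. Of 23 genes of mucin-type O-glycosylation, 19 were measured, 11 higher and 1 lower, and 9 of the 19 were measured through 1 line alone. GALNT3, which starts such sugar chains, had 57.2 TPM in HCC827 and 0.504 in H1299, and GCNT3, which branches them, had 15.9 and 0.0319.

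Among genes near EPCAM and the CEACAMs in kind, some differed widely between the lines and others little. Of 16 genes that are related to EPCAM, cut it or accompany it, all 16 were measured in siCTR, with 6 at least 2-fold higher, 3 lower and a median log2 ratio of 0.10. Over all genes 13.5% were higher and 27.8% lower, and 6 of the 16 were measured through 1 line alone. The claudin gene CLDN7, whose product binds EPCAM, stood at 282.9 TPM in HCC827 against 0.204 in H1299, both with siCTR, and the protease gene ST14 had 176.7 and was listed at 0. ADAM17, a protease gene whose product cuts EPCAM, had 51.0 TPM in HCC827 and 54.3 in H1299. Of 19 other CEACAM and pregnancy-specific glycoprotein genes in the table, 2 were measured in siCTR, each through 1 line alone. CEACAM1 had 16.8 TPM in HCC827 and 0.981 in H1299, and CEACAM19 had 3.71 and 5.39.

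The genes around CD44 were divided. ESRP1 and ESRP2, splicing regulators that favor variant CD44 exons in epithelia, had 197 and 25.2 TPM in HCC827 siCTR, against 0.359 and a listing at 0 in H1299 siCTR. MMP14, a membrane protease that cuts CD44, had 1.701 in HCC827 and 80.8 in H1299, and ANK1 had 0.0436 and 12.4. Of the 10 genes of CD44 splicing, cleavage and anchoring, 3 were at least 2-fold higher and 5 lower, with a median of -0.74. Over all genes 13.5% were higher and 27.8% lower. Of the 10, 5 were measured through 1 line alone, ESRP1, ESRP2, MMP14 and ANK1 among them, so the filter fixed their direction. Of 14 hyaluronan and ligand genes 5 were measured, 3 of them higher and 1 lower, and 1 of the 5 was measured through 1 line alone. The hyaluronidase gene TMEM2 had 48.0 TPM in HCC827 and 5.94 in H1299, and the hyaluronan synthase gene HAS3 had 13.6 and 1.15.

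Genes that make and attach GPI anchors were compared because 5 of the 9 antigens carry one. Of 28 such genes, 26 were measured in siCTR, 3 of them at least 2-fold higher and 2 lower in HCC827, with a median of -0.34 beside -0.39 over all genes. PGAP1, which remodels the anchor, had 1.83 TPM in HCC827 and 9.53 in H1299, and PIGL had 45.3 and 16.8. Of 14 folate genes 11 were measured, 1 higher and 2 lower, with GGH, a folate hydrolase, at 12.9 TPM in HCC827 and 97.3 in H1299. Of 44 other carcinoma surface antigens 32 were measured, 12 higher and 9 lower, with a median of 0.22. Over all genes 13.5% were higher and 27.8% lower. Of the 32, 10 were measured through 1 line alone, as were 2 of the 26 GPI genes and 1 of the 11 folate genes. SLC34A2 (15.3 TPM in HCC827 and listed at 0 in H1299) and EGFR (493.0 and 26.0) were higher in HCC827, and AXL, a receptor kinase of mesenchymal cells, was higher in H1299 (334.2 against 0.835). With the median of all genes set to 0, the counts became 13 higher and 1 lower for O-glycosylation, 3 and 2 for folate genes, 15 and 9 for other antigens and 3 and 4 for CD44 splicing, cleavage and anchoring, and 4 and 2 for the GPI list. The median of the GPI list then was 0.05, and it was -0.04 under quantile normalization.

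**Figure D3:**
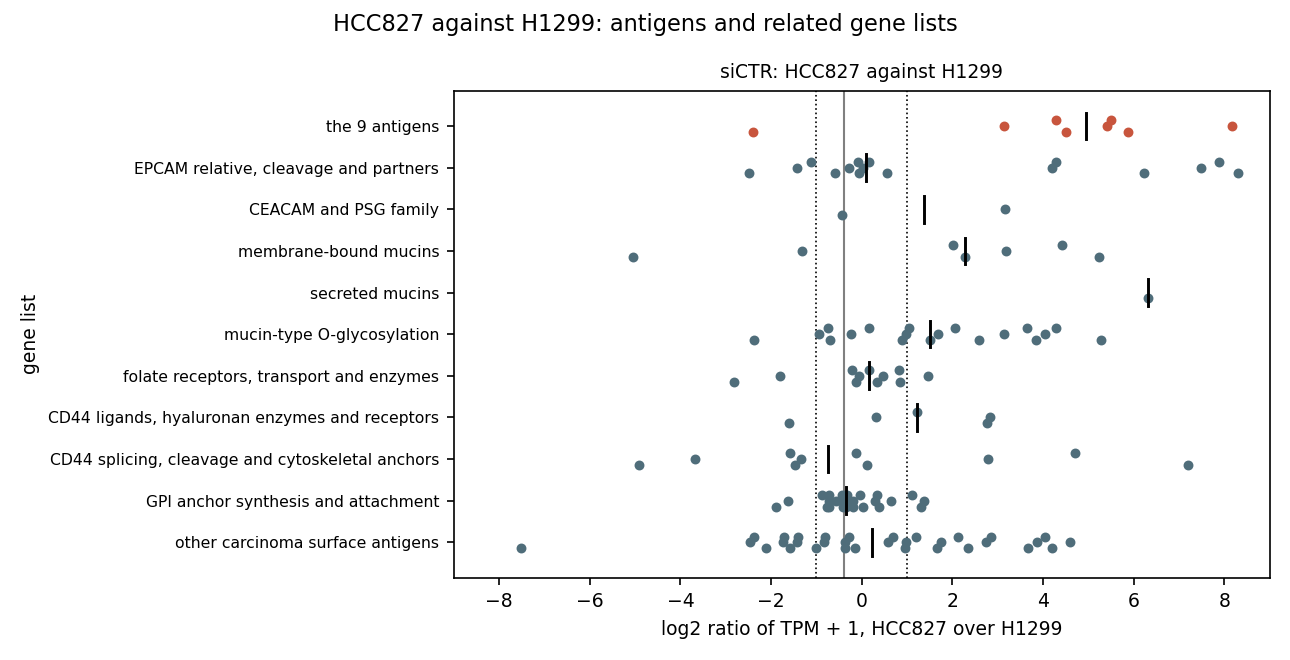
Log2 ratio of TPM + 1, HCC827 over H1299, in the siCTR libraries, with 1 point per measured gene and a black bar at each list's median. The grey line is the median of all genes (-0.39) and dotted lines mark 2-fold. The antigens (red, 8 measured) lie above the upper dotted line except CD44, which lies below the lower one, and the GPI anchor list lies around the median of all genes.

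Related genes were 2-fold different under siCDH3 at about the share of all genes or below it. In HCC827, 2 of 118 measured genes of the 12 lists were higher by the 2-fold rule and 0 lower, where 1.84% of all genes passed it. Both were other surface antigens. CD276, the immune checkpoint gene of B7-H3, stood at 16.6 TPM with siCTR and 47.0 with siCDH3, at a log2 ratio of 1.45. STEAP2, a metalloreductase gene, had 12.3 and 27.4, at 1.09, which was 0.90 with a pseudocount of 5. ST6GALNAC1, the enzyme that makes the sialyl-Tn antigen on mucins, had 13.3 and 24.9, at 0.86. CEACAM7 had 4.51 and 7.33, at 0.60, in the same libraries in which CEACAM6 was at -0.41.

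In H1299, 1 of 99 measured genes of the 12 lists was lower in siCDH3 by the 2-fold rule and 0 higher, where 2.46% of all genes passed it. It was PIGN, an enzyme gene of GPI anchor synthesis, at 23.3 TPM with siCTR and 11.02 with siCDH3, and its log2 ratio of -1.02 became -0.91 with the median of all genes set to 0. BACE1, a protease gene that can cut EPCAM, had 18.5 and 9.34 TPM, at -0.92, and CD59, a GPI-anchored complement inhibitor gene, had 128 and 67.8, at -0.91. Of 11 measured genes of O-glycosylation, 9 lay below the median of all genes, with a list median of -0.33, which is -0.22 relative to all genes. GALNT1 had 26.5 and 15.2 TPM, at -0.76, and C1GALT1 had 15.7 and 9.83, at -0.62. In HCC827 the median of that list was -0.01, over 18 genes. Other lists leaned the same way in H1299. Below the median of all genes lay 6 of 7 genes of CD44 splicing, cleavage and anchoring, 17 of 27 other antigens and 16 of 26 GPI genes. The counts were 5 of 11 for the EPCAM list, 4 of 10 for folate genes and 2 of 4 for hyaluronan and ligand genes. Over both lines limma called 0 of the fitted genes of the 12 lists. An unadjusted p under 0.05 was found for 4.49% of all 12941 genes fitted. In the lists 2 genes had one, 1 of 27 in the GPI list and 1 of 10 in the list of CD44 splicing, cleavage and anchoring. Each other list had 0. The 2 were PIGN (mean log2 difference -0.71, adjusted p = 0.950) and ADAM10 (-0.50, adjusted p = 0.950).

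**Figure D4:**
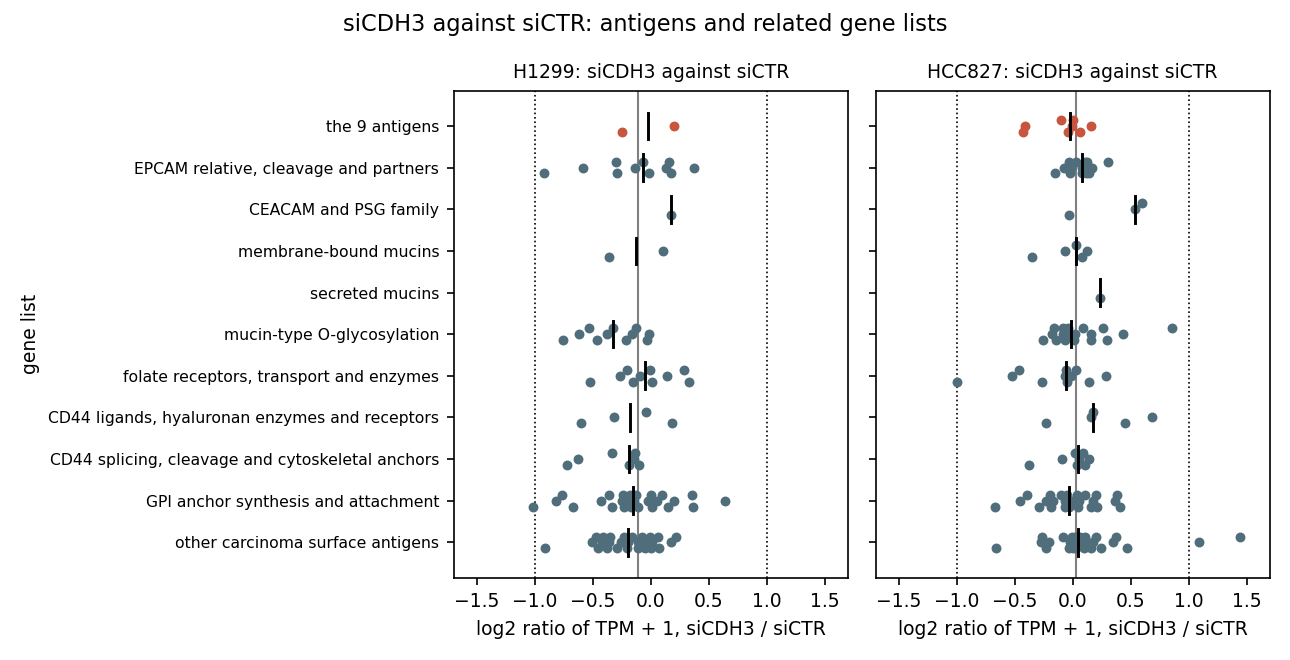
Log2 ratio of TPM + 1, siCDH3 over siCTR, for the measured genes of each list in H1299 (left) and HCC827 (right), with black bars at list medians, the grey line at the median of all genes and dotted lines at 2-fold. The antigens (red) lie inside the 2-fold lines in both panels, and the 2 points beyond the upper line in HCC827 are CD276 and STEAP2.

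For each member measured in a library, the protein-coding genes with the most similar values over the 4 libraries were found by Euclidean distance of log2(TPM + 1), as a description of 4 libraries. Nearest to EPCAM were ELF3 (distance 0.56) and CDH1 (0.76). CEACAM5 lay nearest GRHL2 (0.0382) and GPRC5C (0.0473), CEACAM6 nearest HS6ST2 (0.21) and DAPK1 (0.26), and MUC16 nearest PLCB2 (0.0659) and RASEF (0.0894). MUC1 was nearest CTH (0.34) and KLF5 (0.44), and FOLR1 nearest SCEL (0.16) and TMPRSS4 (0.36). CD24 was nearest ALDH1A3 and NAPSA, both at 0.67. CD44 was nearest COX6B1 (0.29) and EIF3K (0.31).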

How the data were processed

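RNA was sequenced from 4 libraries in 4 groups, as the labels name them. The authors deposited TPM values, 1 column per library, for 58174 genes, and the labels tie every column to its library. Per the submitters' processing notes the build was hg19. The aligner was not given in the sources used here, and neither were the quantification tool and depth. No counting interval is therefore given.

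Of the gene identifiers, 99.4% are in GENCODE release 29, used here for gene types and overlapping genes. Log2 ratios of TPM + 1 were computed in 4 comparisons, with a filter at 5 TPM and a 2-fold size rule, and no p-value within a line. For the 12941 genes that reached 5 TPM in any library, log2(TPM + 1) was modelled with limma 3.58.1 under R 4.3.3, with cell line as a block, since the labels name each library's line, and had 1 residual degree of freedom per gene. The code was tested on simulated data with known changes, set equal in both lines and with the same spread for every gene. That setting differs from these data, so the simulation does not show how the fit performs on them. Nothing says whether libraries came from separate cultures. Promoters are from RefSeq (GRCh38.p14), for 6 of 9 members, aligned with Biopython 1.88.

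The members and the 12 related lists, with 5 lists of cell type markers, were chosen with earlier results of these data known. In all, 1 listed gene (CEACAM18) was not matched. The genes named are all members, CDH3, up to 4 genes per list with the largest log2 ratio in a siRNA comparison or between the siCTR libraries, and 2 nearest genes per member. Some genes taken by it are left out of the text. Genes named outside this rule, the marker, receptor and overlapping genes among them, were chosen after their values were seen. Alternatives were other pseudocounts, filters, scalings, size rules and limma settings.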

Additional observations from a re-analysis of the deposited data

Results flagged for a closer look

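CD44 lay in opposite directions in the lines, with a log2 ratio of -0.25 under siCDH3 in H1299 and 0.16 in HCC827. Each direction rests on 1 library pair, and the difference between the lines was not tested. STEAP2 was at -0.42 in H1299 and 1.09 in HCC827, which also was not tested. CD276 was at -0.0477 in H1299 and 1.45 in HCC827, likewise not tested.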

How the results depend on the processing

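In the siRNA comparisons 0 members passed the 2-fold rule in either line with pseudocounts of 0.1 and 5, filters at TPM 1 and 20 and no filter, all 3 other scalings, and size rules of 1.5-fold and 4-fold. Without the filter, members below 5 TPM enter as well, and the added 1 draws their ratios toward 0. Between the lines, 8 members passed in siCTR under all of these except the filter at TPM 20, which left 7 members measured. In siCDH3 it was 8, with 7 at TPM 20 and 7 with the 4-fold rule, where CD44 dropped out. Of 72 values of members per comparison, MSLN in H1299 turned from -0.08 to 0.02 with the median set to 0, and MUC1 in HCC827 became -0.03 to -0.04 under the other 3 scalings. No other of these log2 ratios of a member changed sign, and CEACAM5 and CEACAM6, listed at 0 in H1299, took the size of the shift there. Among the means over both lines, that of FOLR1 went from -0.17 to 0.16 with a pseudocount of 0.1. MSLN between the lines in siCTR was 1.12 with a pseudocount of 0.1 and 0.28 as reported. Over all genes in H1299, 286 passed as reported, 138 with a pseudocount of 5, 536 with a filter at TPM 1 or none, 151 at TPM 20, 1199 at 1.5-fold and 38 at 4-fold. In HCC827 it was 203, then 99, 373, 98, 650 and 33. Between the lines in siCTR it was 5195, with 3034 at TPM 20 and 2199 at 4-fold, and in siCDH3 4947, with 2842, 7519 at 1.5-fold and 2182. The share of lower genes among those passing went from 64.3% to 48.9% in H1299 and from 67.4% to 48.7% between the lines in siCTR when the median was set to 0. limma called 0 members under all settings that kept the cell line as block. With no replicate block it also called 0 (20 genes with an unadjusted p under 0.05), but the line difference then enters the spread, so this 0 is uninformative. With a library left out the block could not be fitted, and the lone library was assumed to vary like the others. Those fits mix the line difference into the siRNA difference and cannot test it. EPCAM was at -4.25 without H1299 siCTR and at 3.99 without H1299 siCDH3. The depth is unknown, so values under 5 TPM have no stated precision.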

Other observations

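Of the 9 lung epithelial markers, the 3 that reached 5 TPM in both HCC827 libraries are given here, named after their values were seen. The rest of the list did not reach that level, and 3 of the 9 were listed at 0 in HCC827 siCTR. NAPSA, an aspartic protease gene of alveolar type II cells, stood at 131 TPM in both HCC827 libraries, and at 0.858 and 1.61 in H1299. NKX2-1, the lung lineage factor also called TTF-1, stood at 19.7 TPM with siCTR and 39.0 with siCDH3 in HCC827, and at 0.206 and 0.145 in H1299. FOXA1 had 55.2 and 69.4 in HCC827 and 1.43 and 1.21 in H1299. These are single libraries with no test.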
